A study of Mus musculus with 12 samples.

Results

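Of the 12 libraries of the series, 4 are described here: iXist-ChrX cells after 24 h of doxycycline (Dox), with Xist whole in 1 library (WT) and without its A-repeat in 3 libraries (XistDelA, clones C1, 2C2 and C11). They were chosen by their labels alone, and the question is which genes, X-linked and autosomal, have a WT value outside the range of the 3 clones. iXist-ChrX is a female mouse embryonic stem (ES) cell line from a cross of 129S and Cast, in which a TetOn promoter stands in place of the endogenous promoter of the 129S Xist allele. WT and all 3 clones carry this promoter, so Dox switches on Xist from the 129S X chromosome in each of them. That chromosome is called Xi here and the Cast X chromosome Xa. WT is 1 line and 1 library, and the clones are lines of their own, so the spread between them holds clonal differences too. For C11 the names of the deposited data describe the deletion differently than for the other clones, and the labels do not say whether the same stretch was removed. The cells grew in serum and LIF on inactivated mouse fibroblasts, which the authors removed by pre-plating before extraction. The RNA sequenced was the chromatin-associated fraction, which is rich in transcripts still being made. The libraries of the same 4 lines at 0 h of Dox give the background measured in the same way.

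Xist is a long noncoding RNA that coats the chromosome it is transcribed from and silences its genes, which evens out X-linked expression between females and males. The A-repeat lies near the start of the RNA as a row of short, much alike units. It is the part that SPEN binds, a protein that brings corepressors and histone deacetylation to the chromosome, and Xist without it is known to coat the chromosome while most genes stay active.

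The A-repeat units are shown because they are the stretch by which the labels tell the groups apart. They were read from the longest transcript of Xist in GENCODE M21, of 17946 nucleotides (GRCm38, minus strand, exon 1 at chrX:103473716-103483254). The most frequent run of 12 bases holding all 4 letters in the first 1000 nucleotides was GCCCATCGGGGC, with 3 exact copies, and 8 units lay within 3 mismatches of it. Each line runs 5′ to 3′ with 8 bases before and 20 bases after this core, and the capitals mark the core.
A-repeat unit 1: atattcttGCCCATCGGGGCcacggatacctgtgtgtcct
A-repeat unit 2: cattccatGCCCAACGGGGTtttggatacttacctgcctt
A-repeat unit 3: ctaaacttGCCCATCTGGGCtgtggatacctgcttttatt
A-repeat unit 4: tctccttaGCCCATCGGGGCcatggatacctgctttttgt
A-repeat unit 5: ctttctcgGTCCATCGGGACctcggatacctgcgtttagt
A-repeat unit 6: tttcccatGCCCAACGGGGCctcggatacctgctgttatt
A-repeat unit 7: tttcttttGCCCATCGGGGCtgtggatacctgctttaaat
A-repeat unit 8: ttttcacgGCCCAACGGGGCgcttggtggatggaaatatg
The first core starts at nucleotide 356 of the transcript and the last core ends at nucleotide 744, a stretch of 389 nucleotides or 2.17% of the transcript. The cores start 45 to 72 nucleotides apart, and outside the first 1000 nucleotides 1 further copy lies within 3 mismatches. The ends of the deletion in each clone are not in the files. A count over the whole gene therefore shows the induction of Xist and not the deletion.

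The 4 libraries were of nearly equal depth, with 27795782 counts on genes in WT, 27489603 in C1, 27300014 in 2C2 and 27469878 in C11. Between 46.2% and 47.1% of these counts were assigned to a parental genome by sequence variants. Markers of naive ES cells were present at 2342 RPM in WT, 2270.2 in C1, 2577 in 2C2 and 2510.2 in C11, summed over 15 genes, of which Zfp42 had the most counts. RPM are here computed on TMM-scaled library sizes, and only the next paragraph on Xist uses the plain totals. Sox2 was listed at 0 in all 4 libraries, and the other 14 markers were counted in each of them. The span of Sox2 lies wholly within Sox2ot on the same strand, and pairs that overlap 2 genes on a strand were not counted, so this 0 does not show that Sox2 is absent. The 16 fibroblast markers summed to 73.2 RPM in WT, 82.8 in C1, 82.5 in 2C2 and 85.1 in C11. Fbn1 had the most counts of these, Lum, which overlaps no other gene on its strand, was listed at 0, and 11 of the 16 had a mean under 50 counts. The naive sum of WT thus lay inside the range of the clones, and its fibroblast sum lay below all 3 clones. In bulk RNA, fewer cells of a type and less RNA per cell cannot be told apart.

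Some libraries stand apart on single chromosomes, with and without Dox. On chromosome 11 the median gene was lower in WT than in C1, with a log2 difference of -0.26, and higher than in 2C2 (0.15) and C11 (0.14). The same medians without Dox were -0.30, 0.13 and 0.13. On chromosome 6 the median log2 difference of WT from C11 was -0.10 with Dox and -0.12 without, against 0.01 and 0.03 from C1 and 2C2 with Dox. These shifts widen the range of the clones on those chromosomes. Mid1, an X-linked gene for a microtubule-bound ubiquitin ligase, also stands apart in 1 clone, with 625 RPM in WT, 587 in C1, 616 in 2C2 and 10492 in C11.

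Xist itself was induced in all 4 lines and was highest in WT. On plain totals of counts on genes, WT with Dox reached 5514 RPM (95% Wilson interval 5486 to 5542). C1 was at 1543 RPM (1528 to 1558), 2C2 at 1267 (1254 to 1281) and C11 at 1600.04 (1585 to 1615), and the 3 clones averaged 1470.1 ± 178 (SD, n = 3). WT thus lay 3.45-fold above the highest clone, a gap many times the spread between clones. Without Dox, WT was at 297 RPM (291 to 304) and the clones at 136 ± 19.4 (SD, n = 3), so that WT was 1.88-fold above the highest clone before induction. Of allelic Xist counts with Dox, 99.9% came from 1 genome in WT, and from 99.6% to 99.8% in the clones, and this genome was taken as 129S. All intervals cover counting error only. With 1 WT library the exact two-sided permutation test cannot go below p = 0.5, so it cannot pass a threshold of 0.05 for any value in the 4 libraries. In the edgeR quasi-likelihood test the log2 difference of Xist was 1.88 (standard error 0.16) with a Benjamini-Hochberg adjusted p = 0.921, and in DESeq2 it was 1.87 (standard error 0.20) with an adjusted p = 3.85e-16. The rise with Dox was also larger in WT, by a log2 value of 0.78 (standard error 0.12), in the edgeR fit with the clone as a block (Benjamini-Hochberg adjusted p = 2.59e-04), and the adjusted p was 1.00 without that block.

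**Figure D1:**
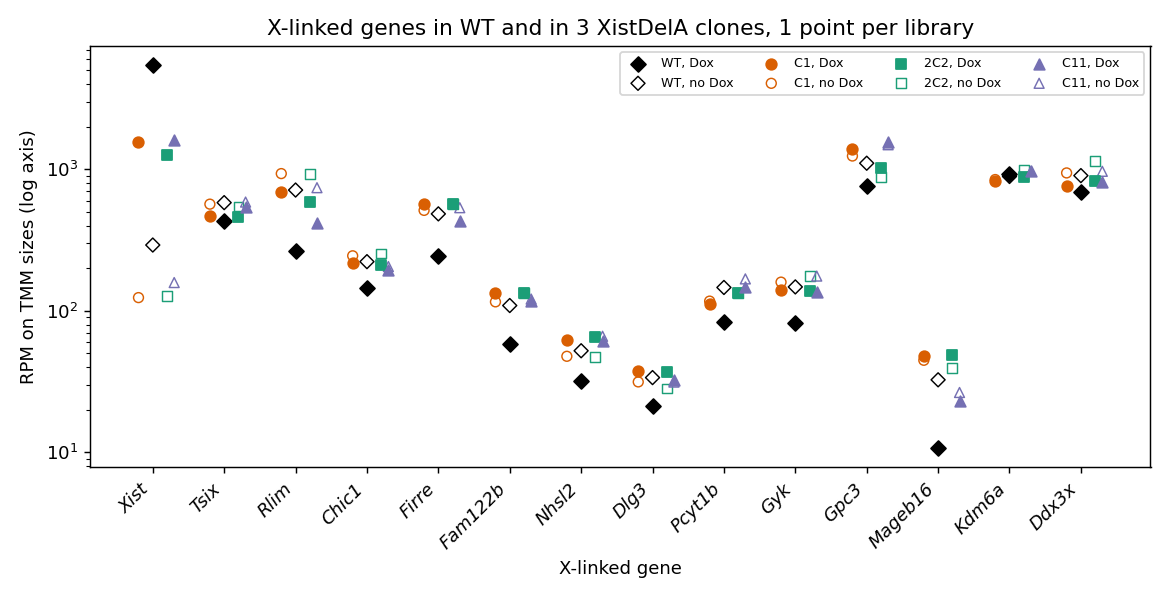
RPM on TMM-scaled sizes (log axis) of 14 X-linked genes in each library, with filled symbols for 24 h of Dox and open symbols for no Dox. Xist in WT with Dox lies at 5451 RPM, above every clone, while WT with Dox lies below every clone for 12 of the other genes and inside their range for Kdm6a.

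The WT library lay below all 3 clones for most X-linked genes. Of the 470 X-linked genes that passed the filter of 50 mean counts, 403 (85.7%) were below the lowest clone, 62 were inside the range and 5 were above the highest clone. Over all 12202 genes tested, 19.5% were below the lowest clone and 22.4% above the highest. A gene is called clearly outside here when WT was at least 1.5-fold beyond the nearest clone. By this rule 76 X-linked genes (16.2%) were clearly below and 1, Xist, was clearly above, against 0.713% and 0.123% of all genes tested. Without C11, the clone nearest to WT, the range is narrower and 166 X-linked genes were clearly below, 14 were above the range and 2 were clearly above; without C1, 13 were above the range. At a 2-fold gap 7 X-linked genes were left clearly below.

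Without Dox the same lines showed a much smaller shift in the same direction. Of 479 X-linked genes, 139 (29.0%) were below the lowest clone and 58 (12.1%) above the highest, where 20.1% and 19.4% of all 11966 genes tested were. Clearly below was 1 X-linked gene, Xlr5a, and clearly above was 1, Xist, while over all genes 0.0334% were clearly below and 0.0167% clearly above. Both were chosen for naming after their values were seen. Of the 76 X-linked genes clearly below with Dox, 36 were also below the range without Dox, 38 were inside it and 2 were above it. Their median log2 difference between Dox and no Dox was -0.83 in WT, -0.08 in C1, -0.13 in 2C2 and -0.15 in C11. These genes were picked for a low WT value with Dox, so the WT median is low in part by that choice. Over all 469 X-linked genes other than Xist the medians were -0.52 in WT, -0.06 in C1, -0.10 in 2C2 and -0.08 in C11.

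The X-linked genes with the widest gap were led by the Xlr genes, a family of X-linked lymphocyte-regulated genes. Xlr5a had 0.747 RPM in WT, 2.83 in C1, 3.45 in 2C2 and 2.28 in C11. Xlr3c had 1.89 RPM in WT, 6.80 in C1, 7.88 in 2C2 and 5.22 in C11. The family has near-identical copies among which read pairs may not be told apart, so the value of each copy is uncertain. Xlr3a had 6.97 RPM in WT, 24.4 in C1, 24.5 in 2C2 and 15.3 in C11. Xlr4a had 1.81 RPM in WT, 5.92 in C1, 7.37 in 2C2 and 3.86 in C11. Xlr4c had 0.889 RPM in WT, 2.79 in C1, 3.59 in 2C2 and 1.80 in C11. All 5 lay below the 3 clones by more than 2-fold. Without Dox, Xlr5a was also lower in WT, with 1.23 RPM in WT, 2.45 in C1, 3.62 in 2C2 and 2.38 in C11. Xlr3a, Xlr4a and Xlr4c were below all clones before induction as well, by gaps of -0.07, -0.19 and -0.30 in log2 to the nearest clone. From the mean of the clones, relative to autosomal genes, these 3 were at -0.75, -0.85 and -1.29 without Dox. With Dox they were at -1.60, -1.62 and -1.56, so much of the Xlr4c difference was there before induction. For Xlr3c alone, the uninduced WT value of 3.56 RPM lay inside the range of the clones. With Dox, the share of allelic counts from Xi was lower in WT than in every clone for Xlr3a and Xlr4a. It was not for Xlr5a (0.5 in WT and in C1), Xlr3c (0.514 in WT, 0.486 in C1) and Xlr4c (0.929 in WT, 0.84 in 2C2). The WT shares of these last genes rest on at most 35 allelic counts.

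Ribc1, Mageb16 and Fam122b were of the same order outside that family, Ribc1 with the widest gap of these. Mageb16, of the melanoma antigen family, had 10.7 RPM in WT, 47.8 in C1, 48.5 in 2C2 and 23.1 in C11, and without Dox 32.6 RPM in WT, 44.8 in C1, 39.6 in 2C2 and 26.5 in C11. It went from inside the range of the clones to more than 2-fold below it. Ribc1 had 1.89 RPM in WT, 5.48 in C1, 4.32 in 2C2 and 4.78 in C11, from 53 counts in WT. Fam122b had 58.7 RPM in WT, 133 in C1, 133 in 2C2 and 117 in C11, and WT lay 1.99-fold under the lowest clone where the uninduced lines were at 109 RPM in WT, 116 in C1, 134 in 2C2 and 121 in C11. In DESeq2 with Benjamini-Hochberg adjustment, Mageb16 was lower in WT (log2 difference -1.91, adjusted p = 0.00337) and so was Fam122b (-1.13, adjusted p = 6.54e-06), while in edgeR with Benjamini-Hochberg adjustment neither passed (adjusted p = 1.00 for both).

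The 5 X-linked genes above the range were, other than Xist, close to it. Mtap7d3 had 24.9 RPM in WT against 23.9 in the highest clone, Il1rapl2 9.75 against 9.70, Taf1 432 against 431 and Mamld1 9.28 against 9.27. These 4 were named after their values were seen, and with sizes scaled on autosomal genes alone 2 genes in place of 5 were above the range. The X-linked genes with most counts whose WT value was inside the range were Mid1, whose range is set by C11, Klhl13, Kdm6a and Flna. Klhl13, a ubiquitin ligase adaptor known to slow the differentiation of XX cells, had 1837 RPM in WT, 1475 in C1, 1869 in 2C2 and 1996 in C11. Kdm6a, a histone demethylase known to escape X inactivation, had 921 RPM in WT, 823 in C1, 880.0 in 2C2 and 966 in C11. Flna, the gene of the actin crosslinker filamin A, had 435 RPM in WT, 366 in C1, 610.4 in 2C2 and 650.1 in C11, with C1 alone below WT.

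A total level inside or above the range went with a lower Xi share in WT for 5 of the genes named above. Kdm6a, inside the range too, had an equal share of the 2 alleles in WT (0.500), just under the clones (0.543 to 0.555). No tally was made over all genes inside or above the range. Here the share is of allelic counts from Xi. Mid1 and Il1rapl2, also named above, start distal of Xist and are not among the 5. For Mid1 nearly all allelic counts were assigned to Xa, and its share was highest in WT (0.0150 in WT, 0.00977 in C1, 0.00738 in 2C2 and 0.00222 in C11). Flna had 0.291 in WT, 0.530 in C1, 0.543 in 2C2 and 0.515 in C11, and Klhl13 had 0.231 in WT, 0.358 in C1, 0.344 in 2C2 and 0.285 in C11. For Mtap7d3 it was 0.0907 in WT, 0.284 in C1, 0.306 in 2C2 and 0.294 in C11, for Taf1 0.301 in WT, 0.402 in C1, 0.376 in 2C2 and 0.381 in C11, and for Mamld1 0.139 in WT, 0.433 in C1, 0.339 in 2C2 and 0.234 in C11. In all 5 genes the share was lower in WT than in every clone, and Flna and Mtap7d3 were called in the allelic test (edgeR with Benjamini-Hochberg adjusted p = 0.0276 and 0.0414).

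Taken gene by gene, WT was lower than C1 for 431 of 469 X-linked genes other than Xist, lower than 2C2 for 442 and lower than C11 for 441. The X-linked level of WT is the median log2 ratio to a clone over these genes minus the same median over 11731 autosomal genes. It was -0.58 against C1, -0.56 against 2C2 and -0.45 against C11, or 66.8%, 67.7% and 73.1% of the clone. The 3 values share the WT library, with a mean of -0.53 ± 0.07 (SD, n = 3 clones). Without Dox they were -0.07, -0.13 and -0.01, so WT was below each clone before induction too, by far less. X-linked genes other than Xist held 4.50% of all counts in WT with Dox (95% Wilson interval 4.49% to 4.51%), and 6.18%, 6.30% and 6.90% in C1, 2C2 and C11. The uninduced shares were 6.26% in WT and 6.43%, 6.68% and 7.26% in the clones. The place of C11 rests on Mid1: without this gene the shares with Dox were 4.44% in WT and 6.13%, 6.24% and 5.86% in C1, 2C2 and C11, and the uninduced ones 6.19%, 6.38%, 6.63% and 6.32%. With or without Mid1, WT had the lowest share in both states. The shift covers most of the distribution. Before the autosomal median is taken off, against C1 the gene at the 10th percentile was at -1.19 and the gene at the 90th at -0.06, and against C11 these were -0.75 and -0.12.

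The level was low along the whole chromosome and least so at its centromeric end. In windows of 20 Mb by distance from the start of Xist, the median log2 difference of WT from the mean of the clones, relative to autosomal genes, was -0.29 over 75 genes between -100 and -80 Mb. It was -0.45 over 32 genes in the next window, between -80 and -60 Mb. In the other 7 windows, with 22 to 84 genes each, it lay between -0.65 (20 to 40 Mb) and -0.55. Without Dox the 9 windows lay between -0.17 and -0.00161. Of genes in the window at the centromeric end, 73.3% were below the lowest clone and 1 of 75 was clearly below, against 91.1% and 15 of 56 between 20 and 40 Mb on the other side of Xist. No test was applied to the windows.

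**Figure D2:**
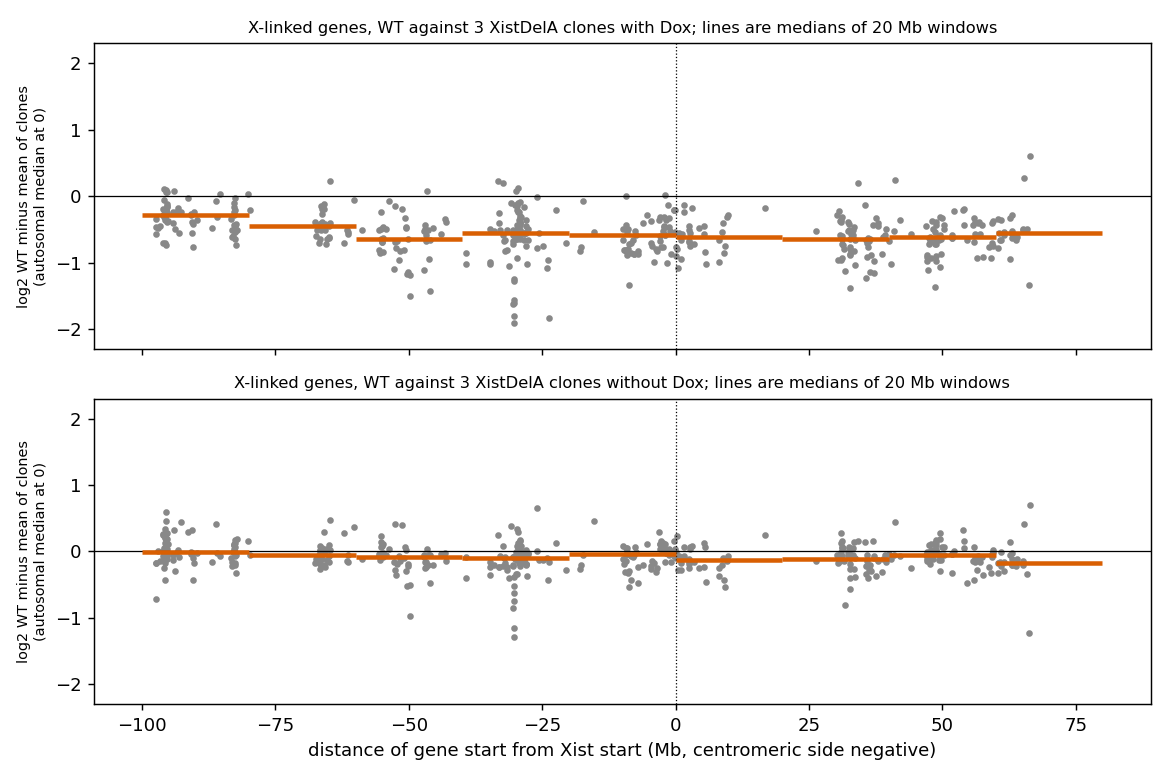
Log2 difference of WT from the mean of 3 XistDelA clones for 469 X-linked genes (points) by distance of the gene start from the start of Xist in Mb, with Dox (upper panel) and without (lower panel), the autosomal median set to 0. The orange lines are medians of 20 Mb windows, from -0.29 at the centromeric end to -0.65 with Dox, and between -0.17 and -0.00161 without.

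The median shift was much alike across levels and lengths of genes, while the counts outside the range were not. Split by uninduced level, the median was -0.55 in the low group of 156 genes, -0.53 in the middle group and -0.52 in the high group. Genes of low level were less often below the range than those of high level, 76.3% against 91.1%, and more often clearly below it, 21.8% against 14.0%. By gene span it was -0.52, -0.51 and -0.57 from the short to the long genes. Genes of short span were more often clearly below the clones, 36 of 156 (23.1%) against 19 of 157 (12.1%) for those of long span. Between clones, the long genes differed most, with a median of -0.70 against C1 and -0.41 against C11. None of these differences between groups of genes was tested.

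For genes on the centromeric side of Xist, the 2 parental genomes show on which chromosome the difference lies. The Xi share of a gene is Xi/(Xi+Xa), taken over 317 informative X-linked genes, which had at least 10 allelic counts on average and a mean uninduced share between 0.1 and 0.9. Its median with Dox was 0.299 in WT. The clones were at 0.5 (C1), 0.511 (2C2) and 0.488 (C11), or 0.4997 ± 0.0117 on average (SD, n = 3). WT thus lay 0.200 under the mean of the clones, outside their range and by many times their SD (exact two-sided permutation p = 0.5, the smallest this design allows). Without Dox the medians were 0.500 in WT and 0.518, 0.521 and 0.522 in the clones. By gene, 274 of the 317 (86.4%) had a lower share in WT than in every clone, where 22.6% of informative genes of all chromosomes did, and without Dox 114 (36.0%) did. With Dox 8 of the 317 (2.52%) had a higher share in WT than in every clone, where 22.8% of 12799 autosomal genes did. A share at least 0.1 below the lowest clone was found for 213 of 317 X-linked and 216 of 12799 autosomal genes.

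In WT the shares were low but seldom near 0. Of the 317 genes, 23 had a share under 0.1 in WT, against 1 in C1, 2 in 2C2 and 3 in C11. In WT 50 genes lay from 0.1 to 0.2, 86 from 0.2 to 0.3 and 89 from 0.3 to 0.4, and 69 were at 0.4 or above. In the clones 259, 269 and 257 genes were at 0.4 or above. In 20 Mb windows from the centromeric end to Xist, the median WT share was 0.364, 0.280, 0.235, 0.318 and 0.218, so it did not fall steadily. All clones lay between 0.468 and 0.518 in these windows. Only 15 informative genes start distal of Xist, where 173 genes were in the total counts, so these shares describe the centromeric side. Between 20 and 40 Mb distal of Xist, 8 informative genes had a median share of 0.359 in WT, inside the range of the clones from 0.312 to 0.376.

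**Figure D3:**
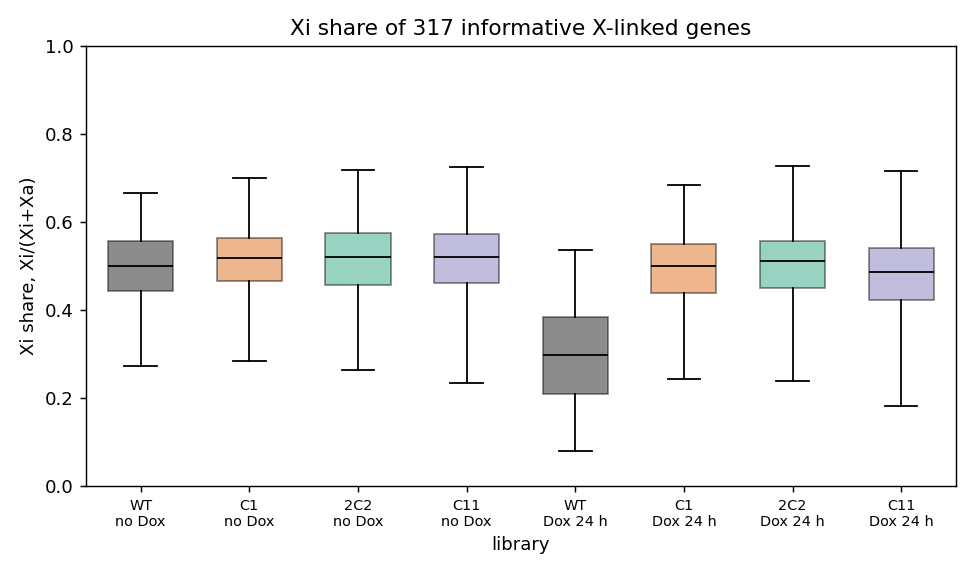
Xi share, Xi/(Xi+Xa), of 317 informative X-linked genes in each of 8 libraries, with boxes from the lower to the upper quartile, a line at the median and whiskers at percentiles 5 and 95. The median of WT with Dox is 0.299, and the other 7 medians lie between 0.488 and 0.522.

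Counted on each genome by itself, the difference of informative genes, nearly all centromeric of Xist, lay almost wholly on Xi. Over 287 of them and relative to autosomal genes, the median log2 difference of the Xi counts was -1.29 from C1, -1.33 from 2C2 and -1.16 from C11. For the Xa counts it was -0.10, -0.09 and 0.00155. Xi counts were lower in WT than in C1 for 280 of 287 genes, and Xa counts for 166. Without Dox the Xi values were -0.09, -0.13 and -0.05 and the Xa values -0.06, -0.05 and 0.05. So before induction Xi was already slightly lower in WT than in each clone, by a small part of the difference with Dox.

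Distal of Xist the allelic counts were plentiful but nearly all assigned to the genome of Xa, with and without Dox. Of 173 distal genes with at least 20 allelic counts, 162 (93.6%) had a mean uninduced Xi share under 0.1, against 2 of 283 centromeric genes. The median share of the distal genes with Dox was 0.01004 in WT, 0.00886 in C1, 0.00716 in 2C2 and 0.00576 in C11. Huwe1, far distal, had 0.00701 in WT, 0.00573 in C1, 0.00579 in 2C2 and 0.00272 in C11, from 18970 allelic counts in WT. Rlim, just distal, had 0.0165 in WT, 0.00722 in C1, 0.00752 in 2C2 and 0.00838 in C11. The counts assigned to Xa were themselves lower in WT there, with a median log2 difference of -0.67 from C1, -0.60 from 2C2 and -0.48 from C11. On the centromeric side these medians were -0.09, -0.07 and 0.02. Without Dox the distal medians were -0.11, -0.13 and -0.01. Whether the distal counts assigned to Xa come from Xa alone was not tested, so on that side the chromosome of the difference cannot be told.

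In the edgeR test of the allele term within libraries, 46 of 457 X-linked genes had a lower Xi share in WT (Benjamini-Hochberg adjusted p from 0.0174 to 0.0498), where 0.373% of all 12333 genes tested were called lower. All 46 start on the centromeric side of Xist and had a lower share in WT than in each clone, by 0.131 to 0.441 under the mean of the clones, with medians of 0.227 in WT and 0.507, 0.512 and 0.487 in C1, 2C2 and C11. No X-linked gene was called higher and no autosomal gene was called in either direction, while 209 autosomal and 225 X-linked genes had an unadjusted p under 0.05. The calls rest on all 3 clones: 11 X-linked genes were called lower without C1, 0 without 2C2 and 5 without C11, and without C1 Xist was called higher. The fit has 2 residual degrees of freedom, so the genes that did not pass cannot be called equal.

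Firre had the largest difference in share of these calls, 0.194 in WT, 0.658 in C1, 0.671 in 2C2 and 0.576 in C11. It is the gene of a long noncoding RNA that anchors the inactive X near the nucleolus. In WT its share has a 95% Wilson interval of 0.181 to 0.208 from 3455 allelic counts, and the adjusted p was 0.0474 (edgeR with Benjamini-Hochberg adjustment, lower than all 3 clones). Its total level had the same order, with 246 RPM in WT, 569 in C1, 572 in 2C2 and 432 in C11. Nhsl2, of the Nance-Horan syndrome family, had 0.0631 in WT, 0.510 in C1, 0.512 in 2C2 and 0.414 in C11, so its share was near 0 in WT alone (interval 0.0412 to 0.0954, edgeR with Benjamini-Hochberg adjusted p = 0.0498). The gene of the synaptic scaffold protein SAP102, Dlg3, had 0.204 in WT, 0.569 in C1, 0.577 in 2C2 and 0.538 in C11 (edgeR with Benjamini-Hochberg adjusted p = 0.0474). For Pcyt1b, an enzyme of phosphatidylcholine synthesis, the share was 0.187 in WT, 0.525 in C1, 0.531 in 2C2 and 0.537 in C11 (edgeR with Benjamini-Hochberg adjusted p = 0.0174). Gyk, the glycerol kinase, had 0.263 in WT, 0.623 in C1, 0.615 in 2C2 and 0.569 in C11 (edgeR with Benjamini-Hochberg adjusted p = 0.0374). In these 5 genes no clone came within 0.3 of WT.

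The genes of the X inactivation centre and its flanks, which surround Xist and hold several of its regulators, were mostly below the clones. Of the 12 listed genes 8 had enough counts beside Xist, and 6 of the 8 were below the range, 0 above and 2 inside. These 75.0% are fewer than the 85.7% below over all X-linked genes, and the median log2 difference was -0.70, against -0.51 over all of them, with no test of either. Rlim, a ubiquitin ligase that activates Xist, had 266 RPM in WT, 692 in C1, 591 in 2C2 and 418 in C11, and 714 RPM in WT, 933 in C1, 922 in 2C2 and 742 in C11 without Dox. All 4 lines were lower with Dox than without, and WT most. Ftx, another noncoding RNA of the centre, had 101 RPM in WT, 233 in C1, 202 in 2C2 and 135 in C11. Chic1, called for its share as well, had 145 RPM in WT, 218 in C1, 212 in 2C2 and 194 in C11. Jpx, an RNA known to favour Xist, was inside the range with 3.09 RPM in WT, 9.67 in C1, 5.92 in 2C2 and 2.46 in C11, and so was Nap1l2 with 17.9 RPM in WT, 16.5 in C1, 22.6 in 2C2 and 22.2 in C11. Cdx4, Zcchc13 and Tsx had mean counts under 50.

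Tsix, the antisense transcript of Xist, was nearer to the clones in level than in share. It had 428 RPM in WT, 468 in C1, 457 in 2C2 and 539 in C11, just below the lowest clone, and 582 RPM in WT, 568 in C1, 546 in 2C2 and 587 in C11 without Dox. Its Xi share was 0.180 in WT, 0.364 in C1, 0.359 in 2C2 and 0.416 in C11 (WT interval 0.169 to 0.192), and from 0.491 to 0.510 in the uninduced libraries. So all 4 lines had a lower share with Dox, and WT the lowest. The allelic test did not pass (edgeR with Benjamini-Hochberg adjusted p = 0.0641).

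Most genes known to escape X inactivation were below the clones too, with a smaller median difference. Of 13 with enough counts, 9 (69.2%) were below the range, 0 above and 4 inside, where 85.7% of all X-linked genes were below. The median log2 difference was -0.25, against -0.51 over all X-linked genes, and whether the list differs from these was not tested. Ddx3x, an RNA helicase, had 688 RPM in WT, 760.2 in C1, 829 in 2C2 and 818 in C11, and its Xi share was 0.410 in WT, 0.498 in C1, 0.497 in 2C2 and 0.511 in C11. Kdm6a was inside the range in level, and its share was 0.500 in WT, 0.555 in C1, 0.543 in 2C2 and 0.543 in C11, lowest in WT by a small step. Firre, of the same list, had the widest gap in share of the allelic calls, as described above. Relative to autosomal genes its log2 difference in level was -1.10. Ftx (-0.89), Jpx (-0.77) and Mid1 (-1.34) also lay beyond the X-linked median (-0.53 on that scale). Mid1, the list's gene with most counts, was inside the range through C11 alone.

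X-linked genes of pluripotency and signalling lay near the X-linked background, with 11 of 14 (78.6%) below the clones and 3 inside, where 85.7% of all X-linked genes were below. Their median log2 difference was -0.42, against -0.51. Gpc3, a glypican that binds growth factors, had 760.2 RPM in WT, 1400.3 in C1, 1023 in 2C2 and 1563 in C11, and its Xi share was 0.170 in WT, 0.505 in C1, 0.505 in 2C2 and 0.472 in C11. Hs6st2, which adds sulfate to heparan chains, had 114 RPM in WT, 301 in C1, 201 in 2C2 and 171 in C11, with a share of 0.231 in WT, 0.475 in C1, 0.487 in 2C2 and 0.452 in C11. Zfx, a transcription factor of stem cell renewal, had 159 RPM in WT, 200.1 in C1, 210.3 in 2C2 and 222 in C11, with a share of 0.430 in WT, 0.616 in C1, 0.639 in 2C2 and 0.639 in C11. These 3 were called in the allelic test (edgeR with Benjamini-Hochberg adjusted p from 0.0174 for Gpc3 to 0.0451 for Zfx and Hs6st2). Gpc4, named after its values were seen, was the list's other call, with a share of 0.164 in WT, 0.455 in C1, 0.466 in 2C2 and 0.423 in C11 (edgeR with Benjamini-Hochberg adjusted p = 0.0288), though its total level was inside the range. The list's calls were thus 4 of 14, where 10.1% of X-linked genes were called. By side of Xist, these X-linked calls were 46 of 283 centromeric genes and 0 of 173 distal ones. The lists differ in how many distal genes they hold, so 10.1% is not a like background for each list, and no difference was tested.

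X-linked regulators of chromatin and transcription were below the clones about as often as all X-linked genes, with 20 of 24 (83.3%) against 85.7%, while 1 was above (Taf1) and 3 were inside. Their median log2 difference was -0.44, against -0.51. Huwe1, a large ubiquitin ligase, had 2391 RPM in WT, 3136 in C1, 3334 in 2C2 and 3463 in C11. Usp9x, a deubiquitinase, had 1673 RPM in WT, 2349.8 in C1, 2211 in 2C2 and 2083 in C11, with an Xi share of 0.366 in WT, 0.538 in C1, 0.538 in 2C2 and 0.540 in C11 (edgeR with Benjamini-Hochberg adjusted p = 0.0174). Atrx, a chromatin remodeller, had 1399 RPM in WT, 2259 in C1, 1930.0 in 2C2 and 1540.4 in C11, with C11 the nearest clone. Ogt, which adds N-acetylglucosamine to proteins, had 611 RPM in WT, 735 in C1, 758 in 2C2 and 825 in C11, and its uninduced level was 623 RPM in WT. Ogt in WT was thus level with Dox while the clones were higher with Dox than without. Both this list and the X-linked background hold distal genes, such as Huwe1 and Atrx, and 0 of 173 distal genes were called in the allelic test. Of this list 4 of 24 genes were called in that test, where 46 of 457 X-linked genes (10.1%) were, and the difference was not tested. The 4 were Usp9x and, named after their values were seen, Phf6, Hcfc1 and Nono.

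X-linked metabolic genes were also near that background, with 22 of 24 (91.7%) below the clones and 2 inside, where 85.7% of all X-linked genes were below. Their median log2 difference was -0.42, against -0.51. Acsl4, which activates long fatty acids, had 162 RPM in WT, 241 in C1, 248 in 2C2 and 241 in C11, and it passed in DESeq2 (Benjamini-Hochberg adjusted p = 0.0453, log2 difference -0.60). Slc25a5, a carrier of ADP and ATP, had 111 RPM in WT, 135 in C1, 153 in 2C2 and 162 in C11. Its Xi share was not lower in WT, with 0.476 in WT, 0.454 in C1, 0.458 in 2C2 and 0.454 in C11. Uba1, the enzyme that starts ubiquitin transfer, had 136 RPM in WT, 145 in C1, 152 in 2C2 and 152 in C11. Sms, spermine synthase, was inside the range with 179 RPM in WT, 231 in C1, 173 in 2C2 and 204 in C11. Hprt, named after its values were seen, was the list's 1 call among 22 genes in the allelic test, where 10.1% of X-linked genes were called. Both counts hold distal genes, such as Acsl4 and Sms, of which 0 of 173 were called. All 5 X-linked lists thus lay below the clones with Dox, and their medians without Dox were between -0.07 and -0.00433.

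**Figure D4:**
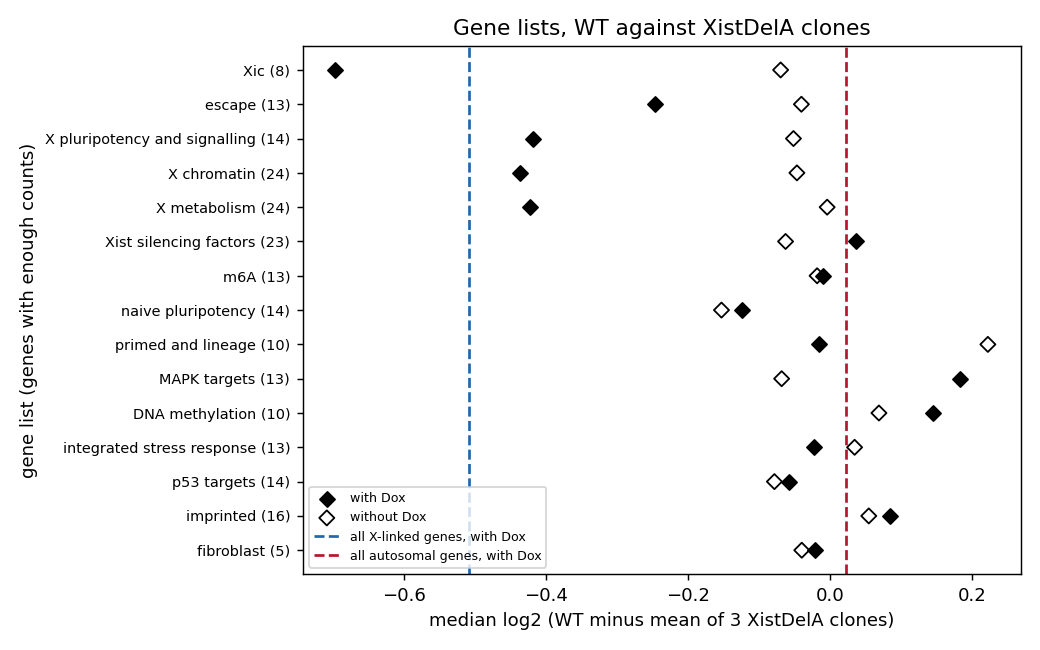
Median log2 difference of WT from the mean of 3 XistDelA clones for 15 gene lists (number of genes with enough counts in brackets), with Dox (filled) and without (open). The 5 X-linked lists lie between -0.70 and -0.25 with Dox, and dashed lines mark the medians of all X-linked genes (-0.51) and all autosomal genes (0.02).

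The tools gave different counts of calls for total level across all genes. In edgeR with Benjamini-Hochberg adjustment 0 of 12202 genes passed (0.0% called), while 262 of 470 X-linked genes (55.7%) and 126 of 11731 autosomal genes (1.07%) had an unadjusted p under 0.05, and 261 of those 262 were lower in WT. Without 2C2 the 262 were 124 and the 126 were 36, and the 126 were 242 without C1 and 349 without C11. DESeq2, with Benjamini-Hochberg adjustment over fewer genes than these 12202, called 38 X-linked genes lower in WT (0.311% of all genes tested were called lower). It called 2 genes higher (0.0164%), Xist and the autosomal Klf12, named after their values were seen. What DESeq2 would call with adjustment over all 12202 genes was not tested. Without Dox, edgeR called 0 of 11966 genes, and 3 of 479 X-linked and 47 of 11486 autosomal genes had an unadjusted p under 0.05. The replicates are clones, so these p-values measure spread between clones, and the lone WT library is assumed to vary as they do.

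The response to Dox was compared between the lines to take out differences that are there without Dox. In edgeR without a block, 0 of 12110 genes passed, with an unadjusted p under 0.05 for 121 of 475 X-linked and 20 of 11634 autosomal genes, and DESeq2 called 0. With the clone or line as a block, which pairs each Dox library with the uninduced one of its clone, 157 X-linked genes had a lower response in WT and 1, Xist, a higher one. Over all genes 1.47% were called lower and 0.0908% higher, and the autosomal calls were 21 lower and 10 higher. With C11 left out, this block fit called 237 X-linked genes lower, and 274 autosomal genes lower and 158 higher. Without 2C2 the autosomal calls were 6 and 5, and without C1 they were 17 and 6, so the autosomal counts rest on which clones are in the fit.

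Of the X-linked genes in that block fit Mageb16 had the largest difference of response, a log2 value of -1.69 (standard error 0.17, edgeR with Benjamini-Hochberg adjusted p = 2.90e-06). Xlr3c followed at -1.39 and Ribc1 at -1.35. Gpm6b, a membrane proteolipid, had 7.36 RPM in WT, 12.2 in C1, 16.1 in 2C2 and 13.8 in C11 and a difference of response of -1.05. Mid2, which is related to Mid1, had 2.70 RPM in WT, 8.38 in C1, 6.03 in 2C2 and 4.16 in C11, with -1.05 as well. In these 5 genes WT with Dox was below all clones and WT without Dox inside their range. Over all X-linked genes tested, 157 of 475 (33.1%) were called lower, and most lists were near that. By list these were 5 of 8 genes of the inactivation centre (Ftx, Rlim and Chic1 among them), 5 of 13 of the escape list, 5 of 14 of X-linked pluripotency and signalling, 8 of 24 of X-linked chromatin and 7 of 24 of X-linked metabolism. The 5 of the escape list were Firre, Ftx, Kdm5c, Utp14a and Shroom4, and the 5 of signalling were Gpc3, Hs6st2, Gpc4, Fgd1 and Amer1. Of these, Kdm5c, Utp14a, Shroom4, Gpc4, Fgd1 and Amer1 were named after their values were seen.

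Autosomal genes lay outside the range of the clones about as often without Dox as with it. With Dox 1981 of 11731 (16.9%) were below the lowest clone and 2730 (23.3%) above the highest, and without Dox 2265 (19.7%) and 2261 (19.7%) of 11486. Which side holds more genes with Dox rests on the scaling, with 2402 below and 2300 above on TMM sizes from autosomal genes, and 1581 and 3269 on plain totals. Clearly below were 11 and clearly above 14 with Dox, and 3 (Sipa1, Slc50a1 and Ccdc129) and 1 (Gm1966) without Dox, these 4 named after their values were seen. Leaving out a clone narrows the range: without C1 the clear counts were 21 and 48, without 2C2 25 and 29, and without C11 67 and 80. The genes below were 3098 without C1 and 3342 without C11, and those above 4233 and 4335. The clear calls were thinly counted, with median mean counts of 85.5 for the 11 and 81.5 for the 14, and with at least 200 counts 2 and 5 were left. At a 2-fold gap there were 0 in either direction. Of the 11, 6 were on the same side of the range without Dox, and of the 14, 9 were.

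By chromosome, 11 and 6 stood apart from the other autosomes. On chromosome 11, 5.69% of 966 genes were below and 7.87% above the range, which was wide there, with a median of 0.56 log2 between the highest and the lowest clone against 0.22 to 0.40 on the other autosomes. Chromosome 6 had 22.7% below and 13.4% above, with the widest range of clones after 11 (0.40). On chromosome X the median width of the range was 0.34, so a narrow range was not a feature of that chromosome. Without chromosomes 1, 6 and 11, a set chosen after seeing the data, 6 autosomal genes were clearly below and 12 clearly above. Chromosome 1 held 2 of the genes clearly below and 1 of those clearly above.

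**Figure D5:**
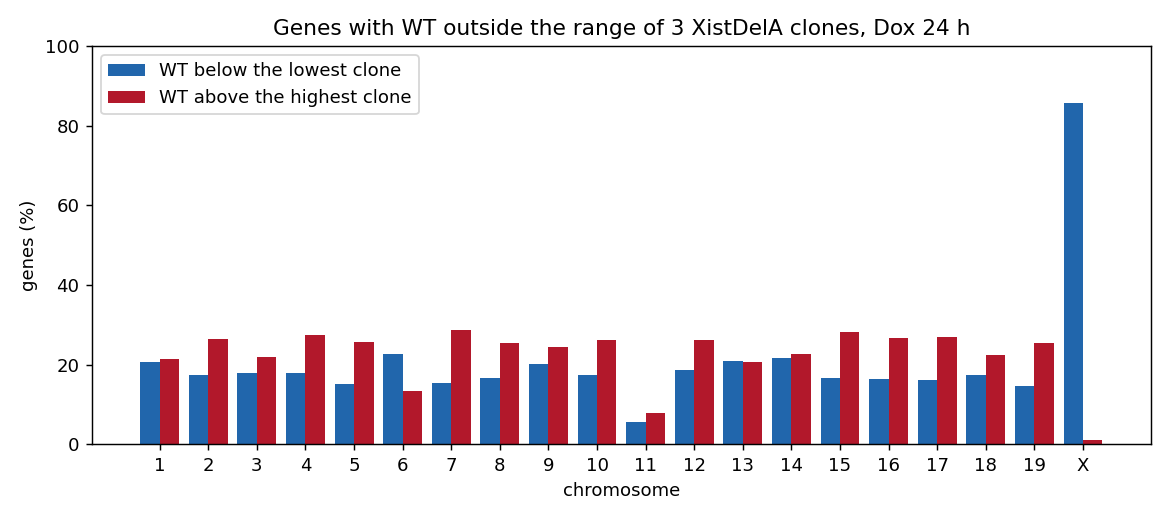
Percent of genes on each chromosome with a WT value below the lowest (blue) or above the highest (red) of 3 XistDelA clones, with Dox. Chromosome X stands at 85.7% below and 1.06% above, and chromosome 11 at 5.69% and 7.87%.

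The 6 autosomal genes furthest below the clones were Iqca, Muc19, Ndn, Tuba3b, Syn2 and E330023G01Rik, and all but Syn2 had at most 30 counts in WT. Syn2, a synaptic vesicle protein, had 9.03 RPM in WT, 16.1 in C1, 16.5 in 2C2 and 15.2 in C11, and 8.53 RPM in WT, 9.93 in C1, 9.99 in 2C2 and 10.0 in C11 without Dox. The clones were higher with Dox than without while WT was level. Iqca had 1.03 RPM in WT, 2.94 in C1, 2.07 in 2C2 and 2.72 in C11, from 29 counts in WT, and Ndn, an imprinted gene, had 1.07 RPM in WT, 1.91 in C1, 2.43 in 2C2 and 2.13 in C11, from 30 counts in WT. Tuba3b has a near-identical copy, so its 0.996 RPM in WT, against 1.78 in the lowest clone, are uncertain. Muc19 had 0.960 RPM in WT, 2.17 in C1, 2.87 in 2C2 and 1.88 in C11. E330023G01Rik had 1.07 RPM in WT, 2.68 in C1, 2.36 in 2C2 and 1.80 in C11. None passed in edgeR with Benjamini-Hochberg adjustment (adjusted p = 1.00 for each).

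Furthest above the clones was Enpp2, the secreted enzyme autotaxin, with 16.6 RPM in WT, 7.02 in C1, 3.78 in 2C2 and 8.38 in C11, and 8.53 RPM in WT, 6.90 in C1, 4.73 in 2C2 and 7.72 in C11 without Dox. It was already highest in WT before induction, and the gap was wider with Dox. Its response to Dox was higher in WT in edgeR with the clone as a block (log2 difference 0.98, standard error 0.21, Benjamini-Hochberg adjusted p = 0.00977). Aox3, an aldehyde oxidase, had 6.47 RPM in WT, 3.49 in C1, 3.52 in 2C2 and 2.17 in C11. Slc9b2, a sodium and proton exchanger, had 3.34 RPM in WT, 1.25 in C1, 0.907 in 2C2 and 2.06 in C11. Gm4349 had 3.84 RPM in WT, 1.98 in C1, 2.21 in 2C2 and 2.06 in C11. The clones were closer to each other for this gene than for the 3 before it. Nlrc4, an inflammasome protein, had 4.16 RPM in WT, 2.57 in C1, 2.58 in 2C2 and 1.95 in C11. Padi4, which turns arginine of histones into citrulline, had 2.81 RPM in WT, 1.76 in C1, 1.56 in 2C2 and 1.62 in C11. Klf12, a transcriptional repressor, named after its values were seen, had the most counts of the 14, at 396 RPM in WT, 262 in C1, 232 in 2C2 and 251 in C11.

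The largest autosomal differences of response in the block fit, beside Enpp2, were in genes of low level. Ppcs, an enzyme of coenzyme A synthesis, had 6.08 RPM in WT, 3.97 in C1, 3.96 in 2C2 and 4.27 in C11 and was higher in response by 1.03 (edgeR with Benjamini-Hochberg adjusted p = 0.0439). Atp6v0a4, a subunit of the proton pump, had 11.4 RPM in WT, 7.31 in C1, 5.55 in 2C2 and 5.99 in C11 and was higher by 0.93. Lower in response were 1700007G11Rik, at -0.90 with 12.1 RPM in WT, 33.2 in C1, 20.5 in 2C2 and 11.2 in C11, and Rnf182, a ubiquitin ligase, at -0.87 with 8.57 RPM in WT, 18.1 in C1, 14.3 in 2C2 and 10.1 in C11. For Rnf182 the clones were higher with Dox than without, and WT was not.

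Genes for proteins that bind Xist or act in silencing lay mostly inside the range, as autosomal genes did, of which 59.8% were inside, 16.9% below and 23.3% above. Of 23 with enough counts, 16 (69.6%) were inside, 3 below and 4 above, with a median log2 difference of 0.04, and the difference from other genes was not tested. Jarid2, a Polycomb cofactor, had 2357 RPM in WT, 2417 in C1, 2217 in 2C2 and 2135 in C11. Matr3, a nuclear matrix protein, had 713 RPM in WT, 616 in C1, 646 in 2C2 and 714 in C11. Suz12, a Polycomb core subunit, had 777 RPM in WT, 959 in C1, 682 in 2C2 and 665 in C11. Ncor1, a corepressor, had 1219 RPM in WT, 1459 in C1, 968 in 2C2 and 1091 in C11. These last genes, Suz12 and Ncor1, lie on chromosome 11, where the median gene was higher in C1 and the range of the clones was widest (median 0.56 log2). Spen, named after its values were seen, was above the clones, with 128 RPM in WT, 90.8 in C1, 103 in 2C2 and 96.4 in C11 and an unadjusted p of 0.0186 in edgeR (Benjamini-Hochberg adjusted p = 1.00, log2 difference 0.40).

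Genes of the m6A machinery were spread like other autosomal genes. Of 13 with enough counts 2 were below, 3 above and 8 (61.5%) inside, where 59.8% of autosomal genes were inside, with a median of -0.01. Wtap, a subunit of the writer, had 241 RPM in WT, 188 in C1, 189.9 in 2C2 and 236 in C11, just above the highest clone. Ythdc1, the nuclear reader, had 334 RPM in WT, 322 in C1, 335 in 2C2 and 336 in C11. The cytoplasmic reader Ythdf3 had 554 RPM in WT, 521 in C1, 590.2 in 2C2 and 566 in C11. The eraser Fto had 545 RPM in WT, 629 in C1, 543 in 2C2 and 571 in C11, and these last 3 genes were all inside the range. Of the m6A genes and the silencing factors, none was called in the allelic test or in the block fit. Such calls were rare among all autosomal genes, with 0 of 11875 in the allelic test. In the block fit they were 21 lower and 10 higher of 11634.

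Pluripotency genes gave no common direction. Of 14 naive markers with enough counts, 5 (35.7%) were below, 2 above and 7 inside, against 16.9%, 23.3% and 59.8% of autosomal genes, with a median of -0.12 (-0.15 without Dox). Zfp42 (Rex1), lost early when cells leave the naive state, had 873 RPM in WT, 922 in C1, 899.5 in 2C2 and 896 in C11. Esrrb, a nuclear receptor that upholds the naive state, had 499 RPM in WT, 438 in C1, 512 in 2C2 and 529 in C11. Tfcp2l1, a transcription factor of the naive network, had 373 RPM in WT, 327 in C1, 490.4 in 2C2 and 412 in C11. Tdgf1, a Nodal coreceptor, had 117 RPM in WT, 139.9 in C1, 121 in 2C2 and 124 in C11. All 4 markers thus differed from the nearest clone by less than the clones differed from each other, or lay inside them. Of 10 primed and lineage markers with enough counts, 2 were below, 3 above and 5 inside, with a median of -0.02 (0.22 without Dox). Dnmt3b, a DNA methyltransferase that rises on leaving the naive state, had 201 RPM in WT, 165 in C1, 138 in 2C2 and 156 in C11, above all clones. Lef1, a Wnt effector, had 56.1 RPM in WT, 94.0 in C1, 53.2 in 2C2 and 48.0 in C11. Otx2, an early factor of the primed state, had 18.6 RPM in WT, 28.3 in C1, 19.6 in 2C2 and 14.6 in C11. Pax6, a neural factor, had 5.66 RPM in WT, 3.45 in C1, 5.70 in 2C2 and 7.58 in C11. Unlike Dnmt3b, these 3 were inside the range, and Sox1 was listed at 0. Like Sox2, Sox1 lies wholly within another gene on the same strand, so its 0 does not show absence either.

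Genes that respond to MAPK signalling were above the clones in 6 of 13 cases (46.2%), below in 2 and inside in 5, where 23.3% of autosomal genes were above, 16.9% below and 59.8% inside. The difference from these was not tested. They had a median of 0.18 (-0.07 without Dox), against 0.02 over all autosomal genes. Spry4, a feedback inhibitor, had 32.9 RPM in WT, 19.4 in C1, 21.9 in 2C2 and 31.1 in C11, just above the highest clone. Spred1, another inhibitor of the pathway, had 277 RPM in WT, 193 in C1, 223 in 2C2 and 331 in C11. Spred2, its relative, had 203 RPM in WT, 244 in C1, 148 in 2C2 and 159.6 in C11. Etv5, a transcription factor induced by the pathway, had 243 RPM in WT, 294 in C1, 218 in 2C2 and 203 in C11, and it and both Spred genes were inside the range. Of 11634 autosomal genes 10 were called higher in the block fit, and the list held 1 of them. This was Spry2, named after its values were seen, with a response higher by 0.79 (edgeR with Benjamini-Hochberg adjusted p = 0.0344). Fos, also named so, was clearly below, at 5.09 RPM in WT against 8.13 in the lowest clone.

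Genes of DNA methylation were spread much like other autosomal genes, of which 59.8% were inside and 23.3% above. Of 10 with enough counts, 1 was below, 3 were above and 6 inside, with a median of 0.14. Tet2, a demethylating dioxygenase, had 554 RPM in WT, 323 in C1, 393 in 2C2 and 537 in C11, near C11 and well above the other clones. Trim28, a corepressor that protects methylated imprints, had 399 RPM in WT, 308 in C1, 372 in 2C2 and 389 in C11, with C1 lowest. Tet1, the main dioxygenase of ES cells, had 2473 RPM in WT, 2026 in C1, 2144 in 2C2 and 2626 in C11. Zfp57, which guides Trim28 to imprints, had 265 RPM in WT, 218 in C1, 298 in 2C2 and 249 in C11, inside the range like Tet1.

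Genes of the integrated stress response, which ATF4 drives when translation is held back, were spread about the clones. Of 13 with enough counts 4 (30.8%) were below, 4 above and 5 inside, against 16.9%, 23.3% and 59.8% of autosomal genes, with a median of -0.02. Asns, asparagine synthetase, had 232 RPM in WT, 187 in C1, 274 in 2C2 and 258 in C11. Atf4 had 56.3 RPM in WT, 53.1 in C1, 54.8 in 2C2 and 64.1 in C11. Psat1, of serine synthesis, had 103 RPM in WT, 121 in C1, 97.8 in 2C2 and 120.1 in C11. These 3 were inside the range, and Phgdh, of the same pathway as Psat1, was above it by under 1%, with 41.9 RPM in WT, 41.8 in C1, 40.1 in 2C2 and 41.6 in C11.

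Targets of p53 lay more on the lower side than autosomal genes did, and this was not tested. Of 14 with enough counts, 5 (35.7%) were below, 1 (7.14%) above and 8 (57.1%) inside, against 16.9%, 23.3% and 59.8% of autosomal genes. The median of the list was -0.06 with Dox and -0.08 without. The one with most counts, Eda2r, a receptor of the TNF family, is X-linked and is 1 of the 5 below, with 441 RPM in WT, 562 in C1, 621 in 2C2 and 551 in C11. It was called in the allelic test, with a share of 0.340 in WT, 0.478 in C1, 0.472 in 2C2 and 0.463 in C11 (edgeR with Benjamini-Hochberg adjusted p = 0.0374). Ccng1, a cyclin, had 356 RPM in WT, 493 in C1, 358 in 2C2 and 365 in C11, below the lowest clone by under 1%. Trp53inp1, a stress protein, had 337 RPM in WT, 408 in C1, 323 in 2C2 and 331 in C11. Mdm2, the ubiquitin ligase of p53, had 205 RPM in WT, 241 in C1, 194 in 2C2 and 183 in C11, inside the range like Trp53inp1.

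Imprinted genes and fibroblast markers lay mostly inside the range. Of 16 imprinted genes 1 was below, 2 above and 13 (81.2%) inside, where 59.8% of autosomal genes were inside, with a median of 0.08. Rian, a noncoding RNA of the Dlk1 region, had 3979.8 RPM in WT, 3563 in C1, 3490.2 in 2C2 and 4279 in C11. Meg3, from the same region, had 765 RPM in WT, 705 in C1, 665 in 2C2 and 781 in C11. Mirg, also of that region, had 563 RPM in WT, 466 in C1, 494 in 2C2 and 648 in C11, and in all 3 C11 was the highest library. Kcnq1ot1, which silences its neighbours on the paternal allele, had 1181 RPM in WT, 1159 in C1, 1186 in 2C2 and 1195 in C11, inside the range too. Of 5 fibroblast markers with enough counts 1, Fbn1, was below the clones, with 37.6 RPM in WT, 39.1 in C1, 43.8 in 2C2 and 56.3 in C11, and 4 were inside. Col5a2, a collagen, had 15.2 RPM in WT, 17.5 in C1, 16.4 in 2C2 and 12.3 in C11. Pdgfra, a growth factor receptor, had 6.05 RPM in WT, 6.25 in C1, 5.08 in 2C2 and 3.71 in C11. Col1a2, another collagen, had 4.02 RPM in WT, 6.25 in C1, 6.28 in 2C2 and 3.05 in C11, at a few RPM in each library.

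Several limits apply to all of these values. WT is 1 line and 1 library, so a difference from the clones cannot be told apart from a difference of that line or that dish. Xist was lower in every clone than in WT, with and without Dox, and how much of the X-linked difference goes with the level of Xist and how much with the A-repeat cannot be told apart. The share of counts on X moves with all other genes, and the RPM are relative. Distal of Xist nearly all allelic counts are assigned to 1 genome in every library, so the difference of those genes is known as a level and not by chromosome.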

How the data were processed

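ChrRNA-seq counts of 8 of 12 libraries were used: WT and XistDelA (C1, 2C2, C11), each with 0 h and 24 h of Dox; XistDelm6A entered only as an alternative. The authors deposited raw counts of read pairs for 22556 genes of mm10, made with featureCounts 1.5.2 over whole gene spans by strand, with pairs that overlap more than 1 gene not counted, for all pairs and for pairs assigned to each parental genome. Their notes also name Bowtie2 2.3.2, STAR 2.4.2a, SAMtools, bedtools and edgeR. The libraries with Dox held from 27300014 to 27795782 counts on genes.

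From these counts, RPM were computed on TMM library sizes (edgeR 4.0.16) and compared on the log2 scale with a pseudocount of 0.5 counts. Genes needed a mean of at least 50 counts over the 4 libraries compared (total-level tests and ranges), 10 allelic counts (Xi shares) or 20 (allelic test). Tests were edgeR quasi-likelihood fits with Benjamini-Hochberg adjustment over all genes at a threshold of 0.05, with 2 residual degrees of freedom for 1 library against 3. The allelic fit had library, allele and allele by line terms, and the response fit a line by Dox term over 8 libraries. DESeq2 1.42.0 was run beside them in R 4.3.3, and its adjustment covered fewer genes than that of edgeR. Other values came from Python 3.11.15 with scipy 1.17.1. The edgeR fits of total level, of response without the block and of allelic counts were run on simulated data without differences between clones. The block fit and DESeq2 were not run on simulated data.

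For the replicate block, libraries were paired by the clone names in the labels. Deviations of a clone from the mean of the clones, with and without Dox, had correlations across 12202 genes of 0.824 (C1), 0.592 (2C2) and 0.716 (C11), and below 0 between different clones. The deviations sum to 0 over the clones, which by itself pulls the values between different clones below 0. Those values therefore do not bear on the pairing. Genes are not independent replicates.

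Of the genes, 99 were named by rule: the inactivation centre; the 8 X-linked genes furthest below and up to 5 above the clones among those clearly outside; up to 6 autosomal genes on each side; the up to 4 members with most counts of each of 15 lists; the 5 X-linked genes with most counts inside or above the range; the 5 largest allelic calls; and up to 5 X-linked and 5 autosomal calls of the response fit, here with the block. Others are marked as named after their values were seen. The values of some of the genes chosen by rule are not reported here. Members and lists were chosen with earlier results of these data known. Alternatives covered count filters, pseudocount, normalization, tool, block, added libraries and leaving out each clone; WT cannot be left out.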

Additional observations from a re-analysis of the deposited data

Results flagged for a closer look

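The response to Dox differed between WT and the XistDelA clones by the test of the difference itself, in the edgeR fit with the clone or line as a replicate block (Benjamini-Hochberg adjustment). In that fit 157 X-linked genes had a lower response in WT and 1, Xist, a higher one, while 21 autosomal genes had a lower and 10 a higher response. Without the block 0 genes passed. Without C11 the block fit called 237 X-linked genes lower, 274 autosomal genes lower and 158 higher, and without 2C2 it called 117, 6 and 5. What part clonal differences have in these counts was not tested.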

How the results depend on the processing

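Of the alternative values of counts and levels that answer a comparison, 170 stayed within the stated bounds (1.5-fold for a count, 1 SD between clones or the counting interval for a value) and 60 moved. For autosomal genes outside the range, the side with more genes turned with TMM on autosomal genes (2402 below and 2300 above, against 1981 and 2730). The cause of a shift was not tested unless the alternative itself fixes it. With a mean of at least 10 counts, 69 autosomal genes were clearly below and 71 clearly above with Dox, and without Dox 6 X-linked genes were clearly below and 71 and 36 autosomal genes clearly below and above. With at least 200 counts these were 2 and 5 with Dox, and 0, 0 and 0 without. At a 2-fold gap 7 X-linked genes were clearly below, and 0 autosomal genes on either side. With TMM on autosomal genes 2 X-linked genes were above the range. Leaving out 1 clone, which narrows the range by construction, gave from 79 to 166 X-linked genes clearly below, 1 to 2 clearly above, 6 to 14 above, and 21 to 67 and 29 to 80 autosomal genes clearly below and above, with 2704 to 3342 below and 3436 to 4335 above the range.

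DESeq2 called 38 X-linked genes lower, and 1 X-linked and 1 autosomal gene higher, where edgeR called 0. In the response fit the block called 157 X-linked genes lower and 1 higher, and 21 autosomal genes lower and 10 higher, where the fit without it called 0; without C1, 2C2 or C11 the X-linked genes lower were 121, 117 and 237, with 1 higher, and the autosomal genes 6 to 274 and 5 to 158. The allelic calls were 0 to 11 lower and up to 1 higher with 1 clone left out. Over all 502 X-linked genes with enough allelic counts, informative or not, WT lay -0.227 from the clones in Xi share. On TMM sizes Xist was at 5451 RPM in WT, 1559 in C1 and 1616 in C11. Without Mid1, X-linked genes held 4.44% of counts in WT and 6.13% (C1), 6.24% (2C2) and 5.86% (C11). Of the alternative values of single named genes, 676 stayed, 2 moved, 33 passed a threshold they had not and 17 no longer passed. Chosen after seeing the data were the fit on informative genes alone (47 allelic calls), the block fits with a clone left out, the share of counts without Mid1, and the range without chromosomes 1, 6 and 11 (6 autosomal genes clearly below).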
